A study of Arabidopsis thaliana with 12 samples.

Results

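The 43 genes described here encode the chlorophyll-binding antenna proteins of both photosystems and the photosystem subunits that Arabidopsis thaliana makes from nuclear genes. They were chosen by locus from the 24035 genes listed in at least 1 of 12 RNA-seq libraries. By role they comprised 6 photosystem I antenna genes (LHCA1 to LHCA6), 9 genes of the major photosystem II antenna (LHCB1 to LHCB3), 6 genes of its minor antenna (LHCB4 to LHCB7), 12 photosystem I subunits (PSA genes) and 10 photosystem II subunits (PSB genes). All 43 were listed in every library and passed the filter on low counts. The libraries held poly(A) RNA of seedlings aged 10 days, raised upright on plates, in 4 groups of 3: cost1 mutants dehydrated for 6 h on a petri dish, cost1 controls, wild type (WT) dehydrated in the same way, and WT controls. The labels name cost1 without giving its allele or how it was made, and give no sign that the 3 libraries of a group are from different plants or dishes. A p-value here thus reflects only how these libraries vary among themselves, possibly for technical reasons.

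The 2 photosystems of the thylakoid membrane turn light into electron flow, with photosystem II taking electrons from water and photosystem I passing them to ferredoxin. Light-harvesting proteins surround each core, hold most of the chlorophyll, and hand excitation energy inward. Their genes are nuclear, are among the most strongly transcribed in leaves, and are known to respond to light, the clock and the state of the chloroplast. The series asked how the mutant and the wild type compare with and without water loss.

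Expected counts summed to between 5884728 and 6223687 per library. The labels were checked on 2 genes. COST1, the gene the mutant is named for, was listed at 4.95, 5.47 and 5.22 FPKM in dehydrated cost1, against 16.9, 13.5 and 13.3 FPKM in dehydrated WT. In controls it was at 4.69, 4.11 and 3.22 FPKM in cost1, against 15.3, 19.2 and 17.1 FPKM in WT. RD29A, a standard dehydration marker, rose in both genotypes, by 6.28 on the log2 scale in cost1 and by 7.19 in WT. The tissue label, seedling, was set against marker genes. Of 12 root markers EXPA18 was listed in no library, while PIN2, PLT1, PLT2, COBL9, RHD6 and EXPA7, which mark root tips and root hairs, reached at most 0.29 FPKM in any library. SCR, SHR and PHO1, which are also active outside root tips, fell in both genotypes and WOX5 rose. NRT2.1, the last of the 12, was listed in 8 libraries and was not tested.

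The summed level of the root markers was 16.3 to 22.1 FPKM in dehydrated cost1, 33.2 to 39.6 FPKM in control cost1, 20.3 to 21.0 FPKM in dehydrated WT and 33.4 to 36.4 FPKM in control WT. The 8 green tissue markers summed to 12972 to 23694 FPKM in dehydrated cost1, 27389 to 33970.00 FPKM in control cost1, 18224 to 24015 FPKM in dehydrated WT and 29734 to 34888 FPKM in control WT. Of these 8, 6 were called lower after dehydration in cost1 and 2 in WT, against 24.5% and 20.6% of all genes. Without cost1 control replicate 2 the numbers were 2 in cost1 and 1 in WT, against 22.6% and 20.1% of all genes. Both marker sums were therefore lower in the dehydrated groups, as the genes below were, and their part in the results was not tested. The root tip and root hair markers named above were very low in every library. The root sum thus comes mostly from other genes of the list and is not a measure of root content. Which part of the seedling was taken is not stated. In such bulk samples fewer cells of a type and less RNA per cell cannot be told apart.

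A pair of libraries stood apart for these genes. In cost1 control replicate 2 all 43 members were above the mean of the other 2 libraries of the group, with a median log2 ratio of 0.66, and over all genes it correlated with them at only 0.947 and 0.954 while those 2 correlated at 0.985. In WT dehydrated replicate 3 the major antenna genes had a median log2 ratio of −2.24 to the other 2 libraries, although over all genes this library correlated with them at 0.968 and 0.974, close to the 0.965 between those 2. Replicate 1 of dehydrated cost1 was also above the other 2 libraries for all 43 members, with a median log2 ratio of 0.42, and so was WT control replicate 1 within its group, with a median of 0.21. The results below are given with all 12 libraries and, where it matters, without the first 2 of these, with the effect of leaving out the others given beside the counts.

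**Figure D1:**
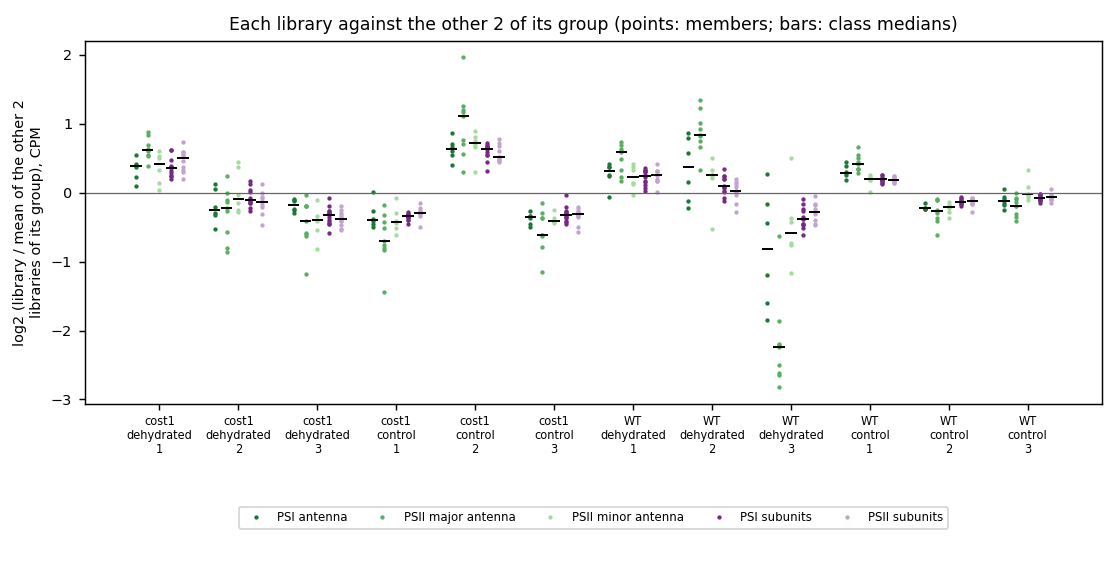
Log2 ratio of each library to the mean of the other 2 libraries of its group (vertical axis, CPM after TMM scaling) for every member, 1 point per gene, with a bar at the median of each role; libraries run along the horizontal axis. The major photosystem II antenna genes in WT dehydrated replicate 3 reach down to −2.82, and every point of cost1 control replicate 2 lies above 0.

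Levels across genes were compared as FPKM, the deposited values scaled to transcript length and depth. LHCB1.3, which encodes an LHCII protein of the major antenna, had the highest mean FPKM of all 24035 genes. It averaged 6477 ± 1205 FPKM in dehydrated cost1 and 11237 ± 2911 FPKM in control cost1, with 7600.2 ± 1862 FPKM in dehydrated WT and 10874 ± 1070.2 FPKM in control WT (SD, n = 3 each). Of the 43 members, 34 were among the 100 genes of highest mean FPKM, and 25 averaged at least 1000 FPKM over all libraries. The 4 exceptions at the low end were antenna relatives: LHCA5 averaged 109 FPKM and LHCA6 85 FPKM over all libraries, LHCB4.3 averaged 45.7 FPKM and LHCB7 16.9 FPKM. LHCA5 and LHCA6 are known to join photosystem I to the NDH complex rather than to form the antenna belt. Together the 43 genes took 4.21% to 5.96% of the counts in dehydrated cost1 libraries and 7.05% to 11.01% in control cost1 libraries. In WT they took 3.38% to 6.13% in dehydrated libraries and 7.18% to 8.49% in controls, so the groups did not overlap within either genotype.

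**Figure D2:**
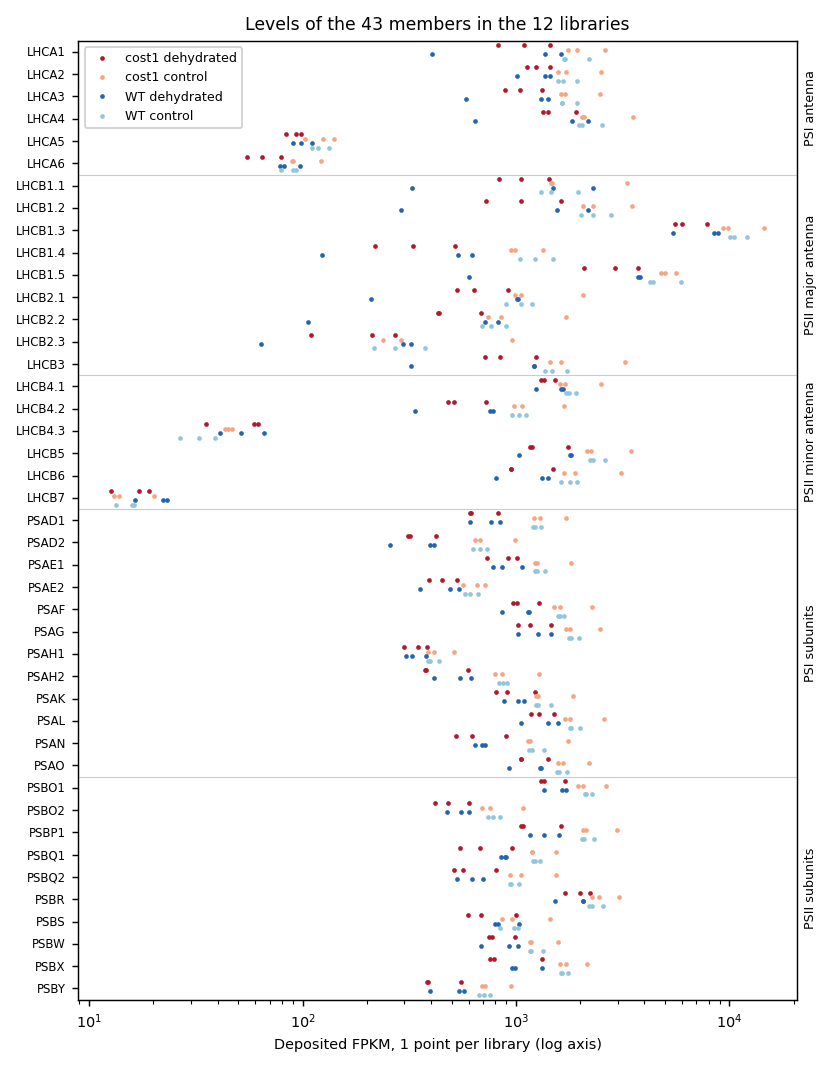
Deposited FPKM of each member (horizontal log axis), 1 point per library, coloured by group and ordered by role down the page. LHCB1.3 lies at the right edge, and LHCA5, LHCA6, LHCB4.3 and LHCB7 lie at the left with all their points. Single points of LHCB2.3, LHCB2.2 and LHCB1.4, such as those of dehydrated WT replicate 3, reach as low as points of LHCA5.

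After dehydration 21 of the 43 members fell in cost1 and none was called higher (edgeR, adjusted p under 0.05), while 22 were not called. No member above 0 had an unadjusted p under 0.05, and DESeq2 also called 0 higher. The median log2 change of the 43 was −0.68, against −0.03 over all 18809 genes tested. Over all genes 24.5% were called lower and 26.4% higher. By role the falls in cost1 comprised 8 of 10 photosystem II subunits, 7 of 12 photosystem I subunits, 3 of 6 minor antenna genes, 2 of 9 major antenna genes and 1 of 6 photosystem I antenna genes. These counts do not rank the sizes of the changes. Log2 changes ran from −1.49 to −0.66 in the major antenna, with larger SEs, and from −0.79 to −0.24 in photosystem II subunits. In 27 of 43 members every dehydrated cost1 library lay below every control cost1 library, on the scale of counts relative to the library total after TMM scaling (CPM), against 28.2% of all genes. Without cost1 control replicate 2 the number called lower was 9, with a median of −0.35 and 22.6% of all genes called lower. Those 9 were all subunits: PSAD1, PSAD2, PSAH2, PSAN, PSBP1, PSBQ1, PSBQ2, PSBX and PSBY. The number was also 9 without cost1 dehydrated replicate 2, with 17.9% of all genes called lower, and 8 without cost1 dehydrated replicate 3, with 19.5% of all genes. Leaving out any of these 3 libraries thus brought the share of members called lower near that of all genes.

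In WT 4 of the 43 members fell, namely LHCB1.4, PSAD1, PSAD2 and PSAN, and 2 rose, namely LHCB4.3 and LHCB7 (edgeR, adjusted p under 0.05). The other 37 were not called, and the median log2 change was −0.37, against −0.02 over all genes. Over all genes 20.6% were called lower and 24.9% higher in WT. The share of members called lower in WT was thus below the background. In 25 of 43 members every dehydrated WT library lay below every control WT library, against 30.2% of all genes. Without WT dehydrated replicate 3 the members called lower numbered 2 and the median was −0.21, with 15.8% of all genes called lower. They numbered 1 without WT control replicate 1, with 15.7% of all genes. They numbered 9 without cost1 control replicate 2, with 20.1% of all genes, and 9 without cost1 dehydrated replicate 1, with 22% of all genes; all 12 libraries share 1 estimate of the spread.

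Scaling mattered as well. With no scaling beyond the library total the median of all genes moved by −0.15 in both genotypes, and the members called lower then numbered 30 in cost1, with 32% of all genes called lower, and 16 in WT, with 28.2% of all genes. Of all genes called, the share called higher was 40.9% in cost1 with no scaling, against 51.9% with TMM scaling, and 42.8% in WT, against 54.7%. Changes below are relative to the TMM scale. In cost1, libraries of the same number deviated together over all genes. In the medians of the 43 members only replicate 3 deviated the same way in both cost1 groups. Replicate 1 was at −0.35 in control and 0.42 in dehydrated cost1, and replicate 2 at 0.66 and −0.13 (log2 ratio to the other 2 libraries). For the cost1 response a fit with the replicate number as a block called 23 members and 23.7% of all genes lower. It added LHCB3 (adjusted p = 0.0469) and PSAO (adjusted p = 0.0424), which without the block had adjusted p = 0.068 and 0.052 (edgeR).

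**Figure D3:**
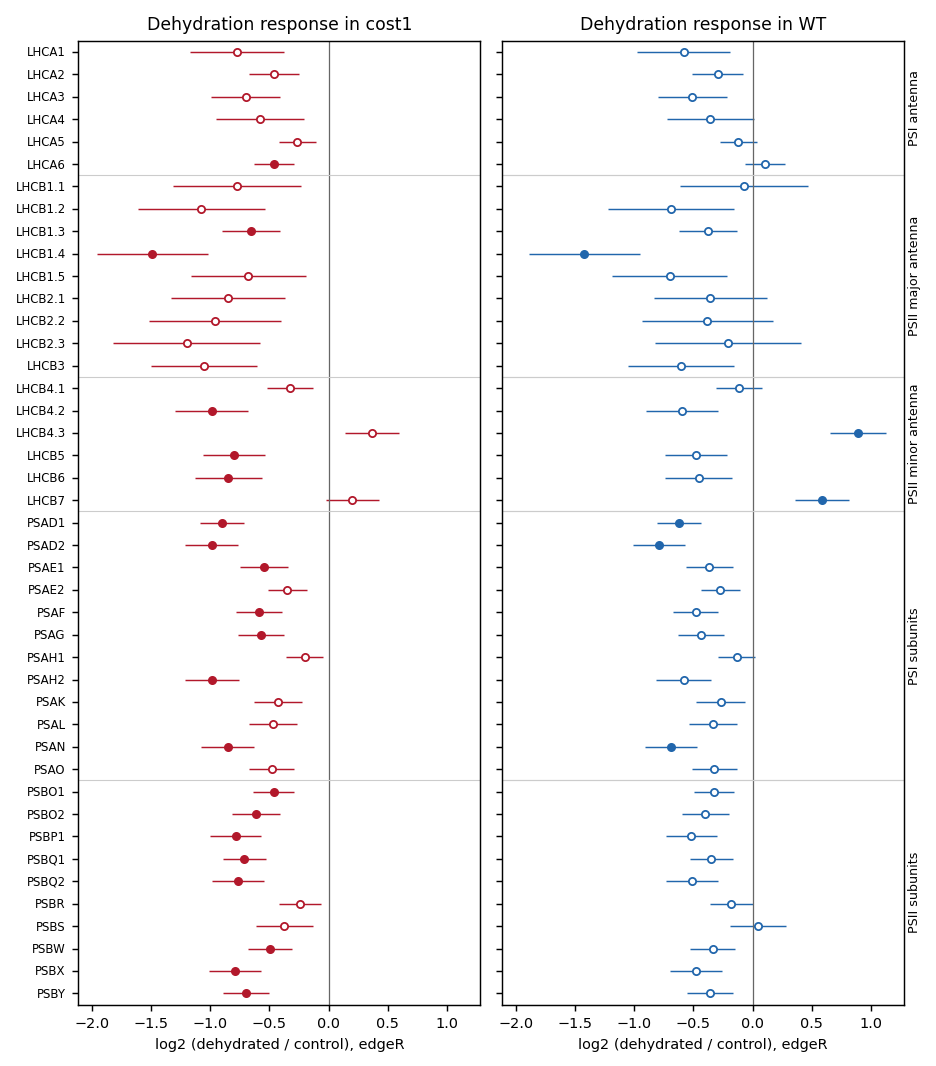
Log2 change after dehydration for each member (horizontal axis, edgeR, bars show the SE), with cost1 on the left and WT on the right and members ordered by role; filled points were called at adjusted p under 0.05. In cost1 21 filled points lie left of 0, and in WT 4 lie left and 2, LHCB4.3 and LHCB7, lie right.

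Of the 12 nuclear subunits of photosystem I, 7 fell in cost1 and 3 in WT, against 24.5% and 20.6% of all genes. The WT count is near its share. PSAD1 (AT4G02770) and PSAD2 (AT1G03130) are 2 copies of PsaD, the stromal subunit on which ferredoxin docks, and both fell in both genotypes. PSAD1 had 961, 754 and 716 CPM in dehydrated cost1, against 1288, 1921 and 1334 CPM in control cost1 (log2 change −0.90, SE 0.19, adjusted p = 0.00182). It had 981, 898 and 735 CPM in dehydrated WT, against 1440.5, 1271 and 1308 CPM in control WT (log2 change −0.62, SE 0.18, adjusted p = 0.0164). PSAD2 had 412, 331 and 303 CPM in dehydrated cost1, against 597, 923 and 553 CPM in control cost1 (log2 change −0.99, SE 0.22, adjusted p = 0.00317). PSAD2 had 404, 393 and 259.8 CPM in dehydrated WT, against 669.9, 555 and 602 CPM in control WT (log2 change −0.79, SE 0.22, adjusted p = 0.0121). For both copies the dehydrated and control libraries did not overlap in either genotype. In cost1 both calls held under all 21 alternatives. In WT the call of PSAD2 held under all 21 and that of PSAD1 was lost without WT control replicate 1 or WT dehydrated replicate 3.

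PSAN (AT5G64040), a lumenal subunit that helps plastocyanin give its electron to the complex, also fell in both. It had 815, 594 and 468 CPM in dehydrated cost1, against 955, 1513 and 919.8 CPM in control cost1 (log2 change −0.85, SE 0.22, adjusted p = 0.00761). PSAN had 653, 635 and 607 CPM in dehydrated WT, against 1146, 942 and 967 CPM in control WT (log2 change −0.69, SE 0.22, adjusted p = 0.0245). No dehydrated library reached a control library. In WT its call was lost without WT control replicate 1, WT dehydrated replicate 2 or WT dehydrated replicate 3 (adjusted p up to 0.0869). PSAF (AT1G31330), the transmembrane partner in plastocyanin docking, had 1576, 1277 and 1248 CPM in dehydrated cost1, against 1691, 2699 and 1771 CPM in control cost1 (log2 change −0.59, SE 0.19, adjusted p = 0.0232). PSAF had 1419, 1445 and 1103 CPM in dehydrated WT, against 1954, 1768 and 1812 CPM in control WT (log2 change −0.48, SE 0.19, adjusted p = 0.0588). The WT libraries of PSAF did not overlap either, yet the gene was not called there.

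PSAH2 (AT1G52230) and PSAH1 (AT3G16140) encode PsaH, which with PsaL and PsaO forms the side of photosystem I where LHCII docks during state transitions. PSAH2 had 420.2, 285 and 264 CPM in dehydrated cost1, against 512, 867 and 539 CPM in control cost1 (log2 change −0.99, SE 0.23, adjusted p = 0.00412), and the 2 groups did not overlap. PSAH2 had 436, 392 and 304 CPM in dehydrated WT, against 602, 532 and 559 CPM in control WT (log2 change −0.58, SE 0.23, adjusted p = 0.0564). PSAH1 was not called, at −0.20 in cost1 and −0.14 in WT on the log2 scale, and its groups overlapped in both. PSAE1 (AT4G28750), a copy of the stromal subunit PsaE, had 816, 792 and 586 CPM in dehydrated cost1, against 901, 1406 and 897 CPM in control cost1 (log2 change −0.55, SE 0.20, adjusted p = 0.0379). PSAE1 had 868, 703 and 653 CPM in dehydrated WT, against 1042, 903 and 922 CPM in control WT (log2 change −0.37, SE 0.20, adjusted p = 0.154). In both genotypes the dehydrated and control libraries of PSAE1 did not overlap. PSAG (AT1G55670), a peripheral subunit next to the antenna belt, had 1143, 979 and 805 CPM in dehydrated cost1, against 1222, 1867 and 1258 CPM in control cost1 (log2 change −0.57, SE 0.20, adjusted p = 0.0289). PSAG had 1153, 1013 and 833 CPM in dehydrated WT, against 1467, 1303 and 1280.2 CPM in control WT (log2 change −0.43, SE 0.20, adjusted p = 0.0901), again without overlap between groups of the same genotype.

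PSAE1, PSAF and PSAG were no longer called in cost1 without cost1 control replicate 2 (adjusted p = 0.177, 0.1 and 0.127, edgeR). For PSAG only 41.1% of its 49-base stretches, the length of the reads, were unique, since AT1G55673 shares the rest on the opposite strand. The value was 50.8% for PSAH1, 61.4% for LHCB2.3 and 70.8% for PSAE1, each sharing with a gene on the opposite strand. No source used here says whether reads were counted by strand. PSAL (AT4G12800), the most abundant of the photosystem I subunits, had 1614, 1474 and 1258 CPM in dehydrated cost1, against 1652, 2659 and 1706 CPM in control cost1 (log2 change −0.47, SE 0.20, adjusted p = 0.0735), which was not called. PSAL had 1693, 1538 and 1171 CPM in dehydrated WT, against 2029, 1739 and 1773 CPM in control WT, with no call (adjusted p = 0.205). PSAE2 (AT2G20260), PSAK (AT1G30380) and PSAO (AT1G08380) were not called in either genotype, with log2 changes of −0.48 to −0.35 in cost1 and −0.32 to −0.27 in WT.

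Among photosystem II subunits, 8 of 10 fell in cost1 and none was called in WT, where 3 had an unadjusted p under 0.05 and DESeq2 called 1, PSBP1 (AT1G06680). The share of all genes called lower was 24.5% in cost1 and 20.6% in WT. The extrinsic proteins PsbO, PsbP and PsbQ cap the oxygen-evolving manganese cluster, and all 5 of their genes on the list fell in cost1. PSBP1 had 1902, 1353 and 1220.2 CPM in dehydrated cost1, against 2186, 3340.4 and 2192 CPM in control cost1 (log2 change −0.79, SE 0.21, adjusted p = 0.00929). PSBP1 had 1870.2, 1602 and 1407 CPM in dehydrated WT, against 2562, 2181 and 2233 CPM in control WT (log2 change −0.52, SE 0.21, adjusted p = 0.066). No dehydrated library reached a control library in either genotype. PSBQ1 (AT4G21280) had 936, 575 and 662 CPM in dehydrated cost1, against 1073, 1448 and 1041 CPM in control cost1 (log2 change −0.71, SE 0.18, adjusted p = 0.00721). PSBQ1 had 888, 895 and 867 CPM in dehydrated WT, against 1207, 1067 and 1099 CPM in control WT (log2 change −0.35, SE 0.18, adjusted p = 0.142). For PSBQ1 as well, the groups were apart in both genotypes. PSBQ2 (AT4G05180) had 888, 662 and 562 CPM in dehydrated cost1, against 941, 1626 and 1027 CPM in control cost1 (log2 change −0.77, SE 0.22, adjusted p = 0.0122). PSBQ2 had 777, 697 and 606 CPM in dehydrated WT, against 1069, 953 and 948 CPM in control WT (log2 change −0.51, SE 0.22, adjusted p = 0.0745). In all 3 genes the fold was larger in cost1 than in WT, but the difference between genotypes was not called, as given below.

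PSBO1 (AT5G66570), the main copy of the PsbO gene, had 2632, 2243 and 2046 CPM in dehydrated cost1, against 2764, 3950.1 and 2843 CPM in control cost1 (log2 change −0.47, SE 0.17, adjusted p = 0.0383). PSBO1 had 2697, 2593 and 2201 CPM in dehydrated WT, against 3348, 3029 and 3011 CPM in control WT (log2 change −0.33, SE 0.17, adjusted p = 0.139). PSBO2 (AT3G50820), the minor copy, had 821, 698 and 571 CPM in dehydrated cost1, against 939, 1418 and 837 CPM in control cost1 (log2 change −0.61, SE 0.20, adjusted p = 0.0232). PSBO2 had 829, 768 and 675 CPM in dehydrated WT, against 1089.8, 923 and 979.98 CPM in control WT (log2 change −0.40, SE 0.20, adjusted p = 0.124). Both copies were lower in every dehydrated library than in any control library of the same genotype. In cost1 both calls were lost without cost1 control replicate 2 (adjusted p = 0.155 and 0.103).

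The small membrane subunits PSBX (AT2G06520), PSBY (AT1G67740) and PSBW (AT2G30570) fell in cost1 too. PSBX had 956, 607 and 544 CPM in dehydrated cost1, against 1053, 1489.95 and 1097 CPM in control cost1 (log2 change −0.79, SE 0.22, adjusted p = 0.0104). PSBX had 968, 705 and 746 CPM in dehydrated WT, against 1197, 1072 and 1094 CPM in control WT (log2 change −0.48, SE 0.22, adjusted p = 0.0944). The calls of PSBX and PSBY in cost1 held under all 22 alternatives. PSBY had 688, 515 and 479 CPM in dehydrated cost1, against 791, 1142 and 796 CPM in control cost1 (log2 change −0.70, SE 0.19, adjusted p = 0.0105). PSBY had 719.97, 688 and 515 CPM in dehydrated WT, against 893, 763 and 809 CPM in control WT (log2 change −0.36, SE 0.19, adjusted p = 0.151). PSBW, which is known to steady the supercomplex of photosystem II with LHCII, had 964, 804 and 725 CPM in dehydrated cost1, against 1029, 1472 and 1014 CPM in control cost1 (log2 change −0.50, SE 0.19, adjusted p = 0.0452). PSBW had 1001, 922 and 696 CPM in dehydrated WT, against 1228, 1031 and 1049 CPM in control WT (log2 change −0.34, SE 0.19, adjusted p = 0.166). The cost1 groups of PSBW did not overlap, but its call was lost under 11 of 22 alternatives, including the omission of cost1 control replicate 2 (adjusted p = 0.191).

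The other 2 photosystem II genes were not called. PSBR (AT1G79040), whose protein helps to attach the oxygen-evolving proteins, was the most abundant of this role and had 1750.3, 1692 and 1347 CPM in dehydrated cost1, against 1759, 2315 and 1597 CPM in control cost1 (log2 change −0.24, SE 0.18, adjusted p = 0.276). PSBR had 1636, 1654 and 1255 CPM in dehydrated WT, against 1917, 1631 and 1599 CPM in control WT (log2 change −0.18, SE 0.18, adjusted p = 0.44), and the groups overlapped in both genotypes. PSBS (AT1G44575), the sensor of lumen acidity that switches on the harmless loss of excess excitation as heat, had log2 changes of −0.37 in cost1 and 0.05 in WT.

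**Figure D4:**
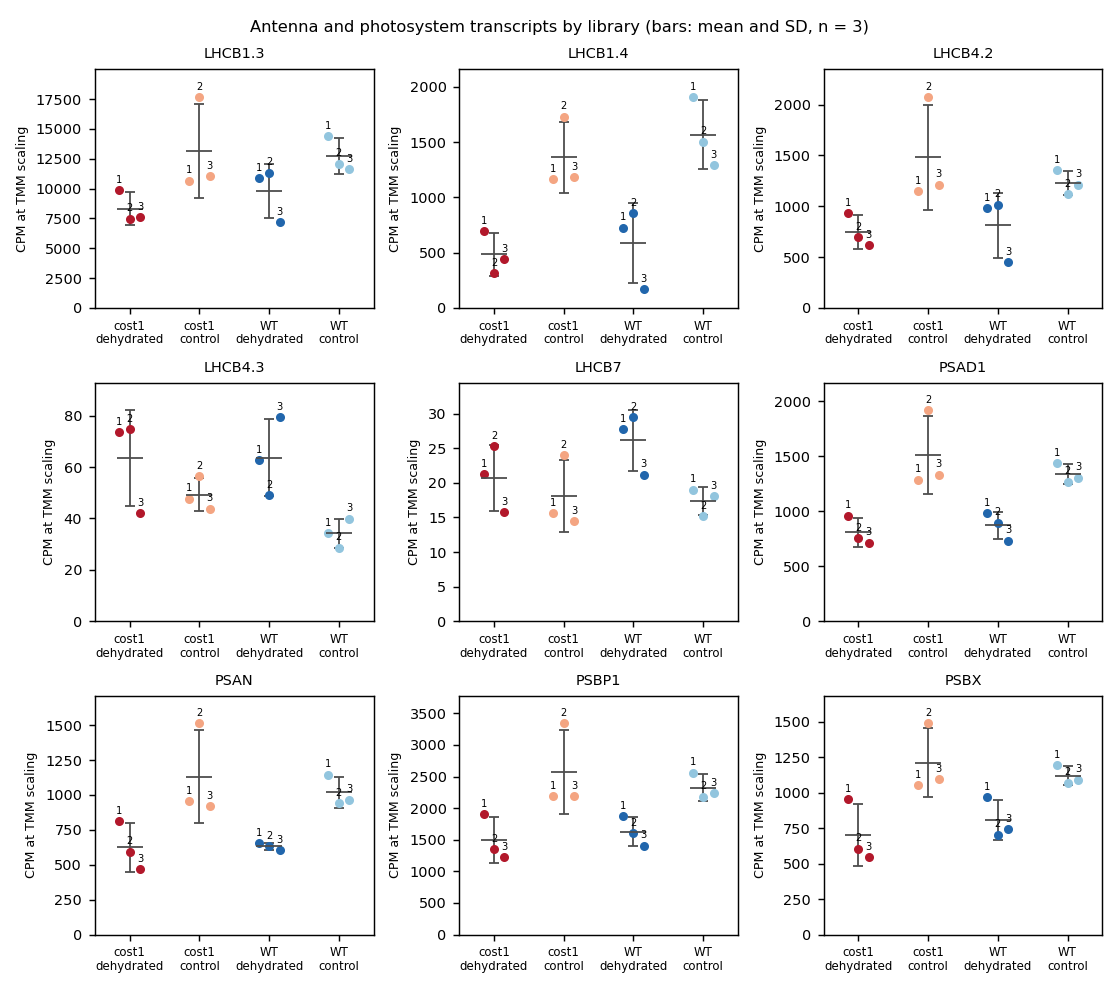
CPM after TMM scaling (vertical axes, each from 0) of 9 members in the 4 groups, 1 point per library with its replicate number, and the mean and SD of 3 libraries as bars. PSAD1, PSAN, PSBP1 and PSBX sit lower in dehydrated than in control libraries of both genotypes, LHCB4.3 and LHCB7 sit higher in dehydrated than in control WT, and library 3 of dehydrated WT is lowest for LHCB1.4 and LHCB4.2.

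Of the 6 minor photosystem II antenna genes, 3 fell in cost1, and 2 others rose in WT. For comparison, 24.5% of all genes were called lower in cost1 and 24.9% higher in WT. LHCB4.1 (AT5G01530), LHCB4.2 (AT3G08940) and LHCB4.3 (AT2G40100) encode CP29, which links the core to LHCII trimers. Their changes are given copy by copy, and the ratios between copies are tested below. LHCB4.2 had 929, 696 and 614 CPM in dehydrated cost1, against 1151, 2076 and 1213 CPM in control cost1 (log2 change −0.99, SE 0.31, adjusted p = 0.0186). LHCB4.2 had 980.2, 1016 and 447 CPM in dehydrated WT, against 1355, 1123 and 1213 CPM in control WT (log2 change −0.59, SE 0.31, adjusted p = 0.132). The groups did not overlap in either genotype, and only the cost1 change was called. LHCB4.1, the most abundant copy, had 2181.7, 2019 and 1948 CPM in dehydrated cost1, against 2105, 3455 and 2158 CPM in control cost1 (log2 change −0.33, SE 0.19, adjusted p = 0.179). LHCB4.1 had 2356, 2437 and 1850.4 CPM in dehydrated WT, against 2608, 2244 and 2332 CPM in control WT (log2 change −0.11, SE 0.19, adjusted p = 0.666). It was not called in either, and its groups overlapped.

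LHCB4.3 is the scarcest of the 3 copies. In WT it rose, with 62.7, 49.1 and 79.3 CPM in dehydrated WT, against 34.4, 28.6 and 39.9 CPM in control WT (log2 change 0.89, SE 0.23, adjusted p = 0.00868), and the groups did not overlap. The call in WT held under all 22 alternatives, at adjusted p = 0.0018 to 0.0427. LHCB4.3 had 73.7, 74.9 and 42.1 CPM in dehydrated cost1, against 47.7, 56.4 and 43.8 CPM in control cost1 (log2 change 0.37, SE 0.23, adjusted p = 0.204), and dehydrated replicate 3 lay below all 3 controls while the other 2 lay above them. LHCB7 (AT1G76570), a little studied relative of these linkers, also rose in WT, with 27.8, 29.4 and 21.2 CPM in dehydrated WT, against 19, 15.2 and 18.1 CPM in control WT (log2 change 0.59, SE 0.22, adjusted p = 0.0495). That call was lost under 10 of 22 alternatives. LHCB7 had 21.2, 25.3 and 15.8 CPM in dehydrated cost1, against 15.6, 24 and 14.5 CPM in control cost1 (log2 change 0.20, SE 0.23, adjusted p = 0.481), and dehydrated replicates 1 and 3 lay within the range of the controls.

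LHCB5 (AT4G10340) and LHCB6 (AT1G15820) encode the linkers CP26 and CP24. LHCB5 had 2515, 1775 and 1703 CPM in dehydrated cost1, against 2814, 4778 and 2867 CPM in control cost1 (log2 change −0.80, SE 0.26, adjusted p = 0.0227). LHCB5 had 2607, 2615 and 1547 CPM in dehydrated WT, against 3532, 2888 and 2998 CPM in control WT (log2 change −0.48, SE 0.26, adjusted p = 0.155). LHCB6 had 1834, 1244 and 1175 CPM in dehydrated cost1, against 1885, 3701 and 2076 CPM in control cost1 (log2 change −0.85, SE 0.28, adjusted p = 0.0252). LHCB6 had 1755, 1672 and 1032 CPM in dehydrated WT, against 2261, 1832 and 2022 CPM in control WT (log2 change −0.46, SE 0.28, adjusted p = 0.206). LHCB5 and LHCB6 did not overlap between dehydrated and control libraries in either genotype. Without cost1 control replicate 2 the cost1 calls of LHCB4.2, LHCB5 and LHCB6 were lost (adjusted p = 0.0799, 0.0986 and 0.121). They were also lost without cost1 dehydrated replicate 2 or 3.

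Of the 9 major antenna genes, 2 fell in cost1 and 1 in WT, against 24.5% and 20.6% of all genes. Neither count is above that share. LHCB1 has 5 copies, LHCB2 has 3 and LHCB3 (AT5G54270) has 1, and their proteins form the LHCII trimers. Of the 49-base stretches of the LHCB1 copies, 77.2% to 88.8% were unique to 1 gene. LHCB1.4 (AT2G34430) fell in both genotypes. It had 697, 314 and 442 CPM in dehydrated cost1, against 1167, 1731 and 1185 CPM in control cost1 (log2 change −1.49, SE 0.47, adjusted p = 0.0192). LHCB1.4 had 726, 856 and 173 CPM in dehydrated WT, against 1909, 1504 and 1291 CPM in control WT (log2 change −1.42, SE 0.47, adjusted p = 0.0265). The groups did not overlap in either genotype, and dehydrated WT replicate 3 was the lowest library of all. In cost1 the call ended when cost1 control replicate 2 was left out (adjusted p = 0.0519), or when cost1 dehydrated replicate 2 or 3 was, and in WT without WT control replicate 1 or 2.

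LHCB1.4 shares 176 of its 1264 stretches of 49 bases with its neighbour LHCB1.5 (AT2G34420), so reads could be split between them. Summed, LHCB1.4 and LHCB1.5 were not called, at −0.82 in cost1 (SE 0.48, adjusted p = 0.175) and −0.85 in WT (SE 0.48, adjusted p = 0.17) on the log2 scale (edgeR). LHCB1.5 had more counts than LHCB1.4 in every library, such as 37714 against 12050 in WT control replicate 1. The sum thus mostly follows LHCB1.5 and cannot decide whether the value for LHCB1.4 alone is right. Of the stretches of LHCB1.4, 85.9% were unique, and its value remains uncertain as far as shared reads were misplaced. LHCB1.5 had 3968, 2382 and 3108 CPM in dehydrated cost1, against 4641, 5773 and 4718 CPM in control cost1 (log2 change −0.68, SE 0.49, adjusted p = 0.263). LHCB1.5 had 4038, 4158 and 667 CPM in dehydrated WT, against 5976, 4266 and 4144 CPM in control WT (log2 change −0.70, SE 0.49, adjusted p = 0.261), where replicate 3 of the dehydrated libraries was far below all others.

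LHCB1.3 (AT1G29930) fell in cost1 and was not called in WT. It had 9890.00, 7487 and 7599 CPM in dehydrated cost1, against 10664, 17686 and 11026 CPM in control cost1 (log2 change −0.66, SE 0.25, adjusted p = 0.041). LHCB1.3 had 10845, 11336 and 7171 CPM in dehydrated WT, against 14408, 12089 and 11601 CPM in control WT (log2 change −0.38, SE 0.24, adjusted p = 0.229). The groups did not overlap in either genotype, and the cost1 call held under 11 of 21 alternatives. Without cost1 control replicate 2 its adjusted p was 0.173. It shares stretches with LHCB1.1 (AT1G29920) and LHCB1.2 (AT1G29910), and the 3 genes summed were at −0.73 in cost1 (SE 0.30, adjusted p = 0.0599) and −0.38 in WT (SE 0.30, adjusted p = 0.322).

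LHCB1.1, LHCB1.2, LHCB2.1 (AT2G05100), LHCB2.2 (AT2G05070), LHCB2.3 (AT3G27690) and LHCB3 were not called in either genotype with all 12 libraries. Their log2 changes ran from −1.20 to −0.77 in cost1, with SEs of 0.45 to 0.62. In WT they ran from −0.69 to −0.07, with SEs of 0.44 to 0.61. For the 22 photosystem subunits the SEs were 0.16 to 0.24 in cost1. Without WT dehydrated replicate 3, 7 of the 9 major antenna genes were called lower in cost1, against 2 with it, and 29 of the 43 members in all, with 24% of all genes called lower. Without both doubted libraries 2 of the 9 and 14 of the 43 were called lower in cost1, with 22.9% of all genes.

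Of the 6 photosystem I antenna genes, 1 fell in cost1, and none was called in WT, where none had an unadjusted p under 0.05 and DESeq2 called 0. The count in cost1 is not above the 24.5% of all genes called lower there, and in WT that share was 20.6%. LHCA6 (AT1G19150) fell in cost1, with 94.4, 69.5 and 76.3 CPM in dehydrated cost1, against 97.4, 139.7 and 94 CPM in control cost1 (log2 change −0.46, SE 0.17, adjusted p = 0.0401), although the groups overlapped. LHCA6 had 117, 98.7 and 96.6 CPM in dehydrated WT, against 105, 86.2 and 98.9 CPM in control WT (log2 change 0.11, SE 0.17, adjusted p = 0.64). In cost1 the call ended when cost1 control replicate 2 was left out (adjusted p = 0.192) and under 7 other alternatives. LHCA4 (AT3G47470), the most abundant of the 6, had 2537, 1912 and 1870.2 CPM in dehydrated cost1, against 2478, 4507 and 2472 CPM in control cost1 (log2 change −0.58, SE 0.37, adjusted p = 0.208). LHCA4 had 2468, 2932 and 895 CPM in dehydrated WT, against 3185, 2394 and 2477 CPM in control WT (log2 change −0.36, SE 0.37, adjusted p = 0.456). LHCA1 (AT3G54890), its partner in the antenna belt, had 1739, 1064 and 1317 CPM in dehydrated cost1, against 1926, 3057 and 2069.9 CPM in control cost1 (log2 change −0.78, SE 0.39, adjusted p = 0.12). LHCA1 had 1674, 1997 and 510.2 CPM in dehydrated WT, against 2533, 1871 and 1857 CPM in control WT (log2 change −0.58, SE 0.39, adjusted p = 0.247), and replicate 3 of dehydrated WT was the lowest library for both LHCA1 and LHCA4. LHCA2 (AT3G61470), LHCA3 (AT1G61520) and LHCA5 (AT1G45474) were not called in either genotype, with log2 changes of −0.70 to −0.27 in cost1 and −0.51 to −0.12 in WT.

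No member was called between genotypes. In controls 0 of 43 members differed between cost1 and WT, while 0.0213% of all genes did, and 1 member, LHCB4.3, had an unadjusted p under 0.05 (log2 difference 0.52, SE 0.23, adjusted p = 0.965, edgeR). All 3 control cost1 libraries of LHCB4.3 lay above all 3 control WT libraries. For 42 of 43 members the control difference was above 0, with a median of 0.15, and without cost1 control replicate 2 it was below 0 for 42 of 43, with a median of −0.09. The sign in controls thus turned with 1 library. Under dehydration 0 of 43 differed, against 0.0372% of all genes, and LHCA6 had an unadjusted p under 0.05 (log2 difference −0.38, SE 0.17, adjusted p = 0.572). The median difference was −0.08 with all libraries and −0.25 without WT dehydrated replicate 3. DESeq2 called no member in either comparison, and 14 and 29 of all genes.

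The difference between the 2 responses was tested directly as the cost1 response minus the WT response. It was called for 0% of all genes and for no member, 690 of all genes had an unadjusted p under 0.05, and LHCA6 was the 1 member with an unadjusted p under 0.05 (log2 −0.57, SE 0.24, adjusted p = 0.999, edgeR). DESeq2 called 1 gene, which was no member. For 42 of 43 members the value was below 0, with a median of −0.23, against −0.02 over all genes. Without cost1 control replicate 2 it was below 0 for 20 of 43, with a median of 0.03. Without WT dehydrated replicate 3 it was below 0 for all 43, with a median of −0.38. The larger number of falls called in cost1 than in WT is therefore not shown to be a difference between the genotypes.

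The low values of dehydrated WT replicate 3 were uneven across members. In that library 8 of the 9 major antenna genes were below −1 on the log2 scale against the mean of the other 2 libraries, as were LHCA1, LHCA3, LHCA4 and LHCB4.2. The photosystem I subunits had a median of −0.38 and the photosystem II subunits −0.27, while the 8 green tissue markers had a median of 0.11. LHCB2.2 shows the size of the gap, with 845, 983 and 129 CPM in the dehydrated WT libraries and 992, 740.01 and 821 CPM in the controls. LHCB1.3 was the exception among the major antenna genes and took 81.1% of all LHCB1 counts in that library, against 50.9% to 59.1% in the other 11. The summed FPKM of the 21 antenna genes over that of the 4 RBCS genes was 0.839 there and 1.46 to 2.46 in the other 11. GLK2, a transcription factor of antenna genes, was listed there at 40.2 FPKM, against 63.1 and 70.1 FPKM in the other 2 dehydrated WT libraries, and GLK1, its homologue, at 65.9 FPKM, against 91.7 and 58.3 FPKM. In cost1 control replicate 2, where all members were high, GLK1 stood at 162 FPKM, against 57.2 and 87.4 FPKM in the other 2 control cost1 libraries. GLK1 thus lay between the other 2 libraries of its group in the low library, and GLK2 is not given here for the high one. The part of these factors in the low or the high values was not tested.

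Copies of a subunit were compared as ratios of FPKM within a library, which do not depend on scaling. The pairs were chosen after their values were seen. LHCB4.2 stood at 0.479, 0.388 and 0.354 times the level of LHCB4.1 in dehydrated cost1, against 0.611, 0.674 and 0.63 in control cost1. In WT the ratio was 0.465, 0.466 and 0.271 in dehydrated libraries, against 0.58, 0.56 and 0.582 in controls. The groups did not overlap in either genotype. LHCB1.4 over LHCB1.3 was 0.066, 0.0393 and 0.0544 in dehydrated cost1, against 0.102, 0.0916 and 0.101 in control cost1. In WT it was 0.0626, 0.0707 and 0.0225 in dehydrated libraries, against 0.124, 0.116 and 0.104 in controls, again without overlap. PSAH1 over PSAH2 was 0.641, 0.918 and 0.793 in dehydrated cost1, against 0.485, 0.398 and 0.479 in control cost1. In WT PSAH1 over PSAH2 was 0.614, 0.596 and 0.734 in dehydrated libraries, against 0.483, 0.468 and 0.457 in controls, and the groups did not overlap in either genotype.

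LHCB4.3 over LHCB4.1 averaged 0.0373 ± 0.0100 in dehydrated cost1 and 0.0241 ± 0.00471 in control cost1, where the groups overlapped. It averaged 0.0366 ± 0.0151 in dehydrated WT and 0.0182 ± 0.00341 in control WT, where they did not (SD, n = 3 each). In 8 of 20 such comparisons, over 10 pairs, the groups did not overlap. The 10 pairs include LHCA6 over LHCA2 and LHCA5 over LHCA1, which are relatives and not copies of a subunit. LHCA6 over LHCA2 in WT, at 0.0681 ± 0.00894 in dehydrated and 0.0511 ± 0.00312 in control libraries, is among the 8. A 2-sided exact permutation test of 3 libraries against 3 gives these 8 p = 0.1, the smallest it allows, and p = 0.25 after Benjamini-Hochberg adjustment over the 20. Such a test could call no ratio at 0.05, and it was run on pairs picked from the same values. PSAD2 over PSAD1, PSAE1 over PSAE2, PSBO2 over PSBO1 and PSBQ1 over PSBQ2 overlapped between dehydrated and control libraries in both genotypes.

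**Figure D5:**
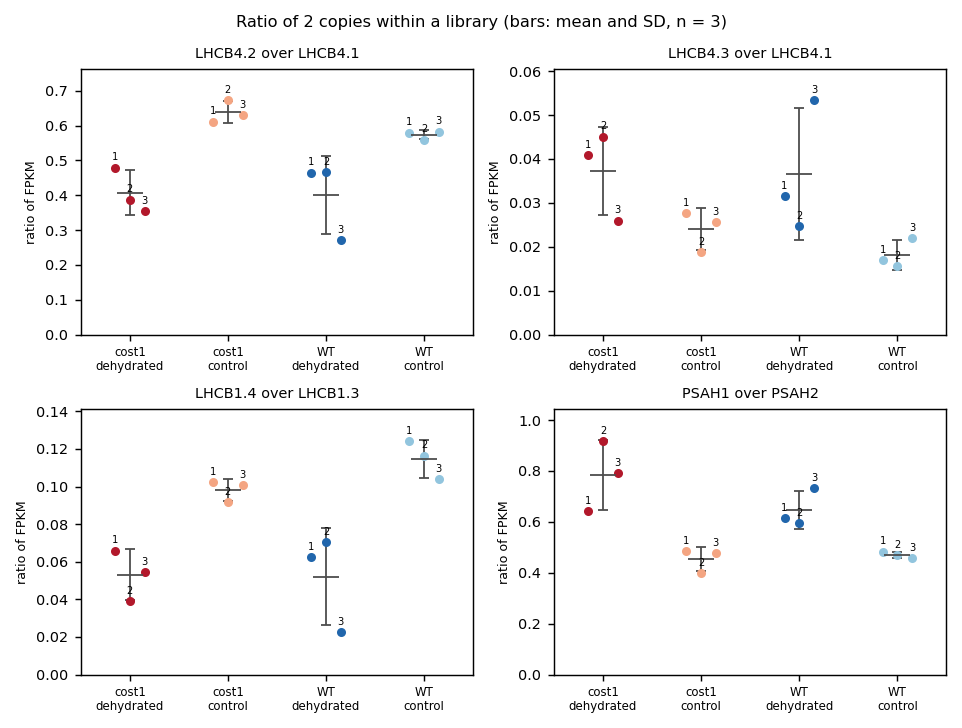
Ratio of the FPKM of 2 copies within a library (vertical axes, from 0) in the 4 groups, 1 point per library with its replicate number, and the mean and SD of 3 libraries as bars. LHCB4.2 over LHCB4.1 and LHCB1.4 over LHCB1.3 are lower in all dehydrated than in all control libraries of the same genotype, and PSAH1 over PSAH2 is higher.

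The 250 bases upstream of the annotated gene start were read for all 43 members, and both strands were searched for the letters of known light and stress elements. The core CCAATC, reported for GLK factors, was in 10 of the 21 antenna windows, in 0 of the 12 windows of photosystem I subunits and in 1 of the 10 of photosystem II subunits, PSBQ2. It was in 11 of 43 members, or 25.6%, against 10.2% of 27443 windows of the same length over all genes. The G-box CACGTG was in 9 of 43 (20.9%, against 6.49%), and the I-box GATAAG in 9 of 43 (20.9%, against 12.3%). The core of the abscisic acid response element, ACGTG, which the G-box contains, was in 18 of 43 (41.9%, against 22.9%). The evening element AAAATATCT was in 1 of 43 (2.33%, against 2.36%) and TATAAA in 19 of 43 (44.2%, against 47.3%). A match is a description of letters and not a binding site.

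The stretches below are shown for LHCB1.3, LHCB1.4 and LHCB1.5, 3 copies of the gene for 1 antenna protein, for the 3 CP29 copies, of which LHCB4.2 was called lower in cost1 and LHCB4.3 higher in WT, and for PSAD1, which fell in both genotypes. Each is the sequence just upstream of the annotated gene start, 5′ to 3′ on the strand of the gene, from the TAIR10.1 genome of RefSeq. The deposited tables give no coordinates, and the submitters' notes name TAIR10. Capitals mark the letters of a G-box, an I-box or the GLK core on either strand. The intervals are chr1:10477635-10477884 (plus strand), chr2:14524357-14524606 (plus), chr2:14523569-14523818 (minus), chr5:208616-208865 (plus), chr3:2717367-2717556 (plus, 190 bases, up to the nearest annotated exon), chr2:16745378-16745627 (plus) and chr4:1230165-1230414 (minus).
LHCB1.3: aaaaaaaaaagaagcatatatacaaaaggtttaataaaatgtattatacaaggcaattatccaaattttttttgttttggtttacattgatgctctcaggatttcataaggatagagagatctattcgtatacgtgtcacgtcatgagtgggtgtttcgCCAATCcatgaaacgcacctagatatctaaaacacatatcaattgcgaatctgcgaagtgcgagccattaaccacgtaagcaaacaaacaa
LHCB1.4: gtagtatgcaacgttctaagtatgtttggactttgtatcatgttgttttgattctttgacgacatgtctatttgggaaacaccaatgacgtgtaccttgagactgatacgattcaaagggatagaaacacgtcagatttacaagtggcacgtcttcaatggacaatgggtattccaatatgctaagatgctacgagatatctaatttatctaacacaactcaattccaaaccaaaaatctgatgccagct
LHCB1.5: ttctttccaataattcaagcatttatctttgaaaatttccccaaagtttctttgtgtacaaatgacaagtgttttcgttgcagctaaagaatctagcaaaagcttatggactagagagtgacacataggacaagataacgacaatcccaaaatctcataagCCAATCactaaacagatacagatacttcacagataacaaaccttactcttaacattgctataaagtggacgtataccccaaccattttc
LHCB4.1: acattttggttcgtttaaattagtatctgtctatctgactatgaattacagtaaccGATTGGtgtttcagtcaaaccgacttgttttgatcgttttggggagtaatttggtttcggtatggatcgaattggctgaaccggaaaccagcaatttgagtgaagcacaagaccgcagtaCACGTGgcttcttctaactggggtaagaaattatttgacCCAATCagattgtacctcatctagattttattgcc
LHCB4.2: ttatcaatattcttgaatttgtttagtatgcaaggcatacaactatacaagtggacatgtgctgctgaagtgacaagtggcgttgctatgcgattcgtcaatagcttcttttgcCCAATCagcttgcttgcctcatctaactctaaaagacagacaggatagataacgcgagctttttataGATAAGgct
LHCB4.3: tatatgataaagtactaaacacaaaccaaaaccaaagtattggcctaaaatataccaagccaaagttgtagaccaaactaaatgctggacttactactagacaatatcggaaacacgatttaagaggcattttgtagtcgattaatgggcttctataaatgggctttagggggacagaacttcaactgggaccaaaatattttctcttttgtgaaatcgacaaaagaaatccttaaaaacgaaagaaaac
PSAD1: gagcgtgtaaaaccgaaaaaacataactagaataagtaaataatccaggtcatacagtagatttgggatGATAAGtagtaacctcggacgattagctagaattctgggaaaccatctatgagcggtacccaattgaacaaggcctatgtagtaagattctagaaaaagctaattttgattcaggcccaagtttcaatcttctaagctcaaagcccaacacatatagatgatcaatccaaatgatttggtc
LHCB4.1 held a G-box and 2 GLK cores, LHCB4.2 a GLK core and an I-box, and LHCB4.3, the copy that rose in WT, none of the 3. LHCB1.5 and LHCB1.3 held a GLK core and LHCB1.4 none, while LHCB1.4 and LHCB1.3 each held ACGTG at 3 places and LHCB1.5 at none. PSAD1 held an I-box.

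Other genes of the photosynthetic membrane were described from lists chosen with earlier results known. Of 14 genes of the electron transport chain and ATP synthase, 7 fell in cost1 and 4 in WT, and none rose (edgeR). Over all genes 24.5% were called lower in cost1 and 20.6% in WT. Several counts of these lists are near or below those shares. The median log2 changes were −0.45 in cost1 and −0.25 in WT. ATPD, the delta subunit of the ATP synthase, was at −0.999 in cost1 (adjusted p = 0.00175) and −0.64 in WT (adjusted p = 0.022). FD2, the main leaf ferredoxin, was at −0.81 in cost1 (adjusted p = 0.00434) and −0.60 in WT (adjusted p = 0.0221). Without WT dehydrated replicate 3 only 1 of the 14 was called in WT, against 15.8% of all genes called lower.

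Of 9 genes for photosystem assembly and antenna delivery, 4 fell in cost1 and 1 in WT, against 24.5% and 20.6% of all genes. The gene that fell in both was CPSRP43, the chloroplast signal recognition particle subunit that carries antenna proteins to the thylakoid. It was listed at 79, 51.1 and 53.1 FPKM in dehydrated cost1, against 174, 182 and 165 FPKM in control cost1 (log2 change −1.36, SE 0.16, adjusted p = 4.07e-05). In WT it was at 90.8, 82.7 and 69.8 FPKM in dehydrated libraries, against 188, 175 and 181 FPKM in controls (log2 change −1.02, SE 0.16, adjusted p = 0.000333). The groups did not overlap, and the control libraries of both genotypes lay within 165 to 188 FPKM, cost1 control replicate 2 included. CPFTSY, the receptor of the particle, fell in cost1 (log2 change −0.38, SE 0.10, adjusted p = 0.00829), while CPSRP54 and ALB3, which act in the same step, were not called in either genotype.

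Of 6 genes of light-harvesting-like proteins, 2 rose and 2 fell in cost1, and 2 rose in WT. Over all genes 26.4% were called higher and 24.5% lower in cost1, and 24.9% higher in WT. ELIP1 and ELIP2, early light-induced proteins thought to bind free pigment, rose in both genotypes. ELIP1 was listed at 64.9, 173 and 49.6 FPKM in dehydrated cost1, against 3.82, 25.4 and 5.05 FPKM in control cost1 (log2 change 3.21, SE 0.66, adjusted p = 0.0018). In WT ELIP1 was at 54.7, 54 and 61 FPKM in dehydrated libraries, against 1.9, 0.95 and 2.78 FPKM in controls (log2 change 5.05, SE 0.81, adjusted p = 0.000387). The groups did not overlap in either genotype, and cost1 control replicate 2 was the highest control library. ELIP2 rose by 3.22 in cost1 and 3.57 in WT on the log2 scale (adjusted p = 0.000244 and 0.000179). LIL3.1 and LIL3.2, relatives that hold chlorophyll synthesis enzymes at the membrane, fell in cost1, and OHP1 and OHP2 were not called.

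Of 9 regulators, 3 fell in cost1 and 1 in WT, against 24.5% and 20.6% of all genes. GLK2 was at −1.03 in cost1 (adjusted p = 0.00146) and −0.48 in WT (adjusted p = 0.0708). GUN4, an activator of chlorophyll synthesis, was at −1.12 in cost1 (adjusted p = 0.000868) and −0.46 in WT (adjusted p = 0.0797). STN8, a kinase of photosystem II core proteins, fell in both, with log2 changes of −0.57 in cost1 and −0.42 in WT. Its WT call ended when WT dehydrated replicate 3 was left out (adjusted p = 0.128, edgeR). The same call also ended without cost1 control replicate 2. GLK1, HY5, STN7, TAP38, GUN5 and CAO were not called in either genotype. None of the 7 photosystem genes of the chloroplast genome was called, and 1 was not tested. Chloroplast transcripts mostly lack poly(A) tails, and psbA stood at 176.9 FPKM in WT control replicate 3 and at 11.5 to 33.6 FPKM in the other 11 libraries.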

How the data were processed

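Poly(A) RNA of 12 Arabidopsis seedling libraries was analysed, 3 in each of 4 groups taken from the labels. The submitters' processing notes list the genome TAIR10 and, as tools, HTSeq 0.6.0, STAR 2.4.0 and DESeq2, without the role of each. The deposited expected counts, per the file headers, are unscaled estimates per gene made by the authors. The deposited FPKM values, per the file headers, are scaled to transcript length and depth. Expected counts were rounded to whole numbers, filtered by filterByExpr and scaled by TMM. They were tested with the quasi-likelihood test of edgeR 4.0.16 (R 4.3.3) in 1 fit over all 12 libraries, with p-values adjusted by the Benjamini-Hochberg method over the 18809 genes kept and called under 0.05. Alternatives used DESeq2 1.42.0, limma 3.58.1 on log2(FPKM + 0.1) and log2(FPKM + 1), other scaling, no filter, copies summed, a replicate block, only the groups compared, and each library left out. The scripts were tested on simulated data.

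The 43 members and all lists were chosen with earlier results of these data known. Values in every library were given for members called in any of the 5 comparisons, the 2 of highest mean FPKM in each role, and members whose change differed from that of a near-identical copy by at least 1 on the log2 scale; other lists were named by their smallest p. Others that are named beside these were chosen after their values were seen. Over all genes tested, libraries of the same replicate number deviated together in cost1 (r = 0.17, 0.38 and 0.19 between dehydrated and control deviations). The block is therefore given beside that response. The pairing comes from these correlations and not from the labels. Of the deposited read statistics only the read length was used, and protein sequences were not used here.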

Additional observations from a re-analysis of the deposited data

How the results depend on the processing

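Numbers of members called lower in cost1 (21 with all libraries) came to 9 with only the groups compared and to 8 to 29 when 1 library was left out, and those called higher (0) to 0 to 1. In WT the 4 called lower became 7 with DESeq2, 2 with copies summed, 9 with limma at either pseudocount, 16 with no scaling, 13 with only the groups compared, and 1 to 9 when 1 library was left out. The 2 called higher became 1 with limma at either pseudocount, 1 with no scaling, and 1 to 2 when 1 library was left out. Genes called between genotypes in controls (4) became 14 with DESeq2, 2 with only the groups compared, 2 without both doubted libraries, and 1 to 7 with 1 library left out. Under dehydration the 7 became 29 with DESeq2, 13 with limma on log2(FPKM + 1), 0 with only the groups compared, and 0 to 8 with 1 library left out. The difference between responses (0) became 1 with DESeq2. The cause was not tested. With the replicate block 7 members were called lower in WT, and 1 and 2 genes between genotypes in controls and under dehydration; samples of those groups share only a number, and their correlations were −0.18 to 0.39. The other 383 counts and medians over members stayed within 1.5 times or 1 SD of their value. For medians that range is wide, as the library medians of members had SDs of 0.31 to 0.54 by comparison. The turn of sign in controls given above lies within it. Leaving out both doubted libraries was chosen after seeing the data. Counts carry at most 6223687 reads per library, and 3 libraries a group limit what can be called.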
